A study of Mus musculus with 10 samples.

Results

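Genome-wide association studies of Alzheimer disease name many loci, and the genes assigned to them act in different cells. Described here are the mouse counterparts of 9 genes from such loci: Abi3, Sorl1, Cd2ap, Fermt2, Cass4, Zcwpw1, Ptk2b, Celf1 and Rin3. They were taken by gene name from the 56748 genes of the count table, each name matched 1 row, and all 9 passed the low-count filter that left 18969 genes for testing. RNA-seq libraries of 5 samples of CD11b+ cells sorted from the brain, labelled microglia and holding 400000 cells each, were compared with libraries of 5 hemi brains, here called bulk brain. All mice were young C57BL/6 males with no treatment given in the labels, and their exact age is not given in the sources used here. CD11b is carried by other myeloid cells as well as by microglia, and bulk brain itself contains microglia. Whether each sample was a different mouse is not stated, so a p-value here reflects only how these samples spread, which may be technical.

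The 9 proteins fall into 3 broad roles. ABI3, CD2AP, kindlin-2 (the product of Fermt2), CASS4 and the kinase PYK2 (the product of Ptk2b) work where membrane receptors and integrins meet the actin skeleton. SORL1 and RIN3 act in endosomes: SORL1 is a sorting receptor that carries the amyloid precursor protein and other cargo through the endosomal system with the help of the retromer complex, and RIN3 activates GTPases of the RAB5 family. CELF1 binds RNA and acts on splicing, decay and translation, and ZCWPW1 reads methylated histone H3 and is best known from meiosis. Actin remodelling and endocytosis serve the motility and phagocytosis of microglia and also the synapses of neurons, so the level of each gene by cell source is the question asked here.

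Sequencing depth was 25087489 to 28514509 counts for microglia and 25845049 to 34709215 for bulk brain, so that 1 count corresponded to 0.0274 to 0.0417 CPM (counts scaled to a common library size of 1e6 after correction for composition). The 10 microglia markers checked were all higher in the sorted cells, with summed levels of 32919 to 34195 CPM against 213 to 262 CPM. Among them was Itgam, which encodes CD11b, so its rise is no independent check of the sort. Neuron markers (10 of 10) summed to 6.49 to 12.3 CPM in microglia against 5903 to 7249 CPM in bulk brain. Oligodendrocyte markers (9 of 9 lower) summed to 144 to 246 CPM against 5809 to 7848 CPM. Markers of neutrophils and monocytes, which also carry CD11b, summed to 35.6 to 51.0 CPM against 2.26 to 3.75 CPM, with 6 of 7 tested higher and Cxcr2 at 0 counts in bulk brain. Markers of border-associated macrophages (7 of 7 higher) summed to 487 to 629 CPM against 10.8 to 12.3 CPM, and genes of the early response to dissociation (11 of 11 higher) to 15724 to 19349 CPM against 310 to 494 CPM. No lymphocyte marker passed the filter (0.333 to 1.51 CPM summed, against 0.446 to 0.743 CPM). The part of these other signals in the differences below was not tested. In 6 of the 9 genes bulk brain replicates 1 and 2 did not overlap replicates 3 to 5, and for these 6 the difference is also given against each set alone. The split ran through the libraries at large and is not read as a trait of these genes. The ratio of chi-square to its degrees of freedom was 106 to 278 between the sets and 5.45 to 7.76 within replicates 3 to 5. Replicates 1 and 2 also differed from each other (46.6). The share of all genes split in this way was not counted.

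Upstream sequences were found for 7 of the 9 genes in RefSeq windows of the GRCm38.p6 build, a build older than the GRCm39 coordinates of the count table. Abi3 and Ptk2b had no entry. Shown are the 250 bases before the start for the 4 genes with a single window, which span the range from far higher to far lower in microglia, 5′ to 3′ on the gene's strand, with each CG dinucleotide in capitals.
Cass4, chr2:172393394-172393643, plus strand: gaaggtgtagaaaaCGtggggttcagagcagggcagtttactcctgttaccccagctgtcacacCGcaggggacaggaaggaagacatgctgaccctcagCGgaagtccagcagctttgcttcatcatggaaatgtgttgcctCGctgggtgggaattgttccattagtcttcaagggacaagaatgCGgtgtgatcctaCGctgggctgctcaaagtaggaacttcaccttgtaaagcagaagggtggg
Cd2ap, chr17:42876425-42876674, minus strand: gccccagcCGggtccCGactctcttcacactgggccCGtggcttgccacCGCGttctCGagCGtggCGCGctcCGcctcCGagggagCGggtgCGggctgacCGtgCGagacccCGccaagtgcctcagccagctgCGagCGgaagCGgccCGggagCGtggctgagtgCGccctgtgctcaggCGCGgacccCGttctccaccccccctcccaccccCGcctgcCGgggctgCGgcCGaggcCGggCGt
Celf1, chr2:90940147-90940396, plus strand: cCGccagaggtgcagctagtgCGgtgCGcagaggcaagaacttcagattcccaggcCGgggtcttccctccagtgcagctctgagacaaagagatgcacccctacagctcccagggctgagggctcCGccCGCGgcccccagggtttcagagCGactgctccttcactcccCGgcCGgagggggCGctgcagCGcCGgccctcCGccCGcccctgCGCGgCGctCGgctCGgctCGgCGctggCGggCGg
Fermt2, chr14:45530066-45530315, minus strand: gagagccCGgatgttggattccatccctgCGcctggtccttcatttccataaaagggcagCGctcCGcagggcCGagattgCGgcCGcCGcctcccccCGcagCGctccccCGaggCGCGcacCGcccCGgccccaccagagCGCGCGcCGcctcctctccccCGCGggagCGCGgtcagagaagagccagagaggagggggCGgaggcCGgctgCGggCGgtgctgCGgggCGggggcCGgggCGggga
Cass4 had 6 CG dinucleotides in its window, the median of the 32851 windows in the table, whereas Cd2ap and Fermt2 had 31 each and Celf1 had 24. Windows rich in CG thus belonged to genes higher in microglia (Cd2ap, Celf1) and to one lower there (Fermt2). The core motif of the myeloid ETS factor PU.1 was searched as GAGGAA on both strands. It occurred once in the 10 windows of the 7 genes, on the opposite strand of 1 of the 2 Zcwpw1 windows, beginning 95 bases before the start, while 23.3% of all windows held it. The motifs TGANTCA (N for any base) and CCAAT were searched in the same way. Neither had a match in the 10 windows, while 6.75% and 33.8% of all windows held them. No match says only that these letters are not in the window.

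**Figure D1:**
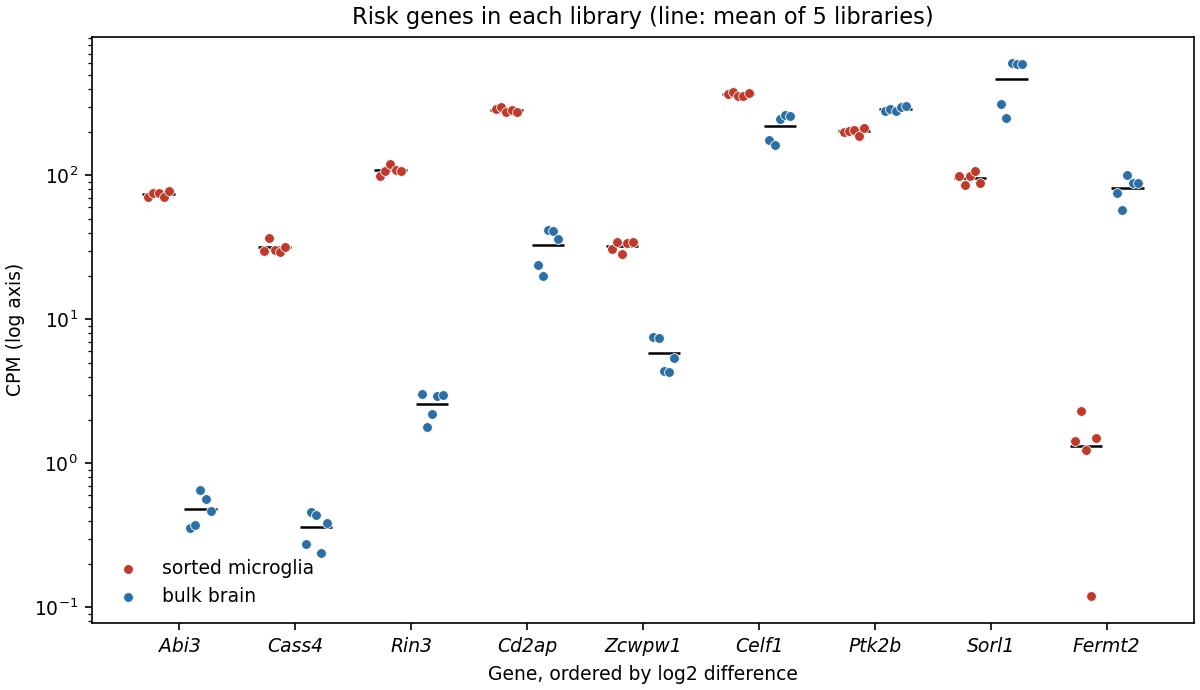
Level of each gene in each library (CPM, log axis), with genes ordered by their log2 difference, red points for sorted microglia, blue points for bulk brain and black lines for the mean of 5 libraries. Abi3, Cass4 and Rin3 are separated by over an order of magnitude in one direction and Fermt2 in the other, while Celf1 and Ptk2b lie close together in both sources.

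Of the 9 genes, 6 were higher in microglia (Abi3, Cass4, Rin3, Cd2ap, Zcwpw1 and Celf1) and 3 lower (Fermt2, Sorl1 and Ptk2b) by edgeR's quasi-likelihood test at an adjusted p under 0.05. Across all genes tested, 37.2% were called higher and 43.9% lower, 81% in all, so a call as such sets none of the 9 genes apart, and the sizes are what separates them. These shares are also the background for every count of partner and other listed genes below, and no list was tested as a set. In all 9 genes the 5 microglia libraries did not overlap the 5 bulk brain libraries, which held for 74.7% of all genes (34.2% with microglia higher, 40.5% with microglia lower). The log2 differences ran from -5.96 (Fermt2) to 7.26 (Abi3), with a median of 2.47 against -0.14 over all genes tested. In tissue, fewer cells of a type and less RNA per cell cannot be told apart.

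Abi3 encodes an adaptor of the WAVE complex, which drives branched actin assembly (ENSMUSG00000018381, chromosome 11, 95720900 to 95733302, minus strand, GRCm39). Microglia replicates 1 to 5 stood at 71.2, 75.4, 75.4, 70.5 and 77.4 CPM, and bulk brain at 0.356, 0.375, 0.655, 0.564 and 0.468 CPM. All microglia libraries lay within a narrow range far above all of bulk brain, which rested on 80 counts in total. In fold terms Abi3 was 153-fold higher, a log2 difference of 7.26 ± 0.17 (SE, n = 5 per group, edgeR adjusted p = 1.2e-11), at the 98.9th percentile of all genes. It was 6.89 against bulk brain replicates 3 to 5 alone and 7.57 against replicates 1 and 2 alone. The bulk brain level was 0.654% of the microglial one, a ratio within the 0.533% to 1.84% of the 10 microglia markers. Markers of border-associated macrophages reached 127-fold (Siglec1), and genes of the early response to dissociation ran from 7.75-fold (Nr4a1) to 9799-fold (Ccl3). The ratio by itself thus does not name the source. The count of Abi3 has a limit of its own: 75.8% of its exon bases also lie in exons of Gngt2, Zfp652 or Phospho1 on the other strand (GENCODE vM21), and the strand setting of the counting is not given in the sources used here. Gngt2, a G-protein gamma subunit gene, was higher too (log2 difference 5.82 ± 0.33), as was the zinc finger gene Zfp652 (2.53 ± 0.22), and their part in the Abi3 counts was not tested.

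The ABI family and the WAVE complex differed by paralog. Abi1 was higher in microglia (203 ± 4.33 CPM against 104 ± 9.64, SD) and Abi2 lower (40.1 ± 1.88 CPM against 168 ± 22.7). Of the 10 WAVE complex and RAC genes, 5 were higher, 4 lower and 1 (Brk1, log2 difference 0.20) not past the threshold, with a median of 0.47. In means of microglia against bulk brain, the HEM subunit appeared as Nckap1l in microglia (1546 ± 35.1 CPM against 8.20 ± 1.31) and as Nckap1 in bulk brain (3.89 ± 1.23 CPM against 584 ± 101). Cyfip1 (log2 difference 3.49), Wasf2 (4.51), Rac2 (5.80) and Rac1 (0.74) were higher, and Cyfip2 (-8.79), Wasf3 (-7.71) and Wasf1 (-9.81) lower. For each of the HEM, CYFIP and WASF subunits, then, at least 1 paralog was higher and at least 1 was lower in microglia.

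Cass4 encodes a CAS docking protein, a scaffold that is phosphorylated by SRC and focal adhesion kinases (ENSMUSG00000074570, chromosome 2, 172235714 to 172275677, plus strand). Its microglia libraries stood at 30.0, 36.8, 30.3, 29.2 and 31.6 CPM and its bulk brain libraries at 0.274, 0.462, 0.437, 0.238 and 0.385 CPM. All 5 microglia values were close together, and bulk brain rested on only 60 counts over its 5 libraries. Cass4 was 88.0-fold higher, a log2 difference of 6.45 ± 0.20 (SE, edgeR adjusted p = 8.0e-11). A noncoding gene on the other strand, Gm14455, shares 21.2% of the Cass4 exon bases. The other 3 CAS genes went the other way: Bcar1, which encodes p130Cas, stood at 0.318 ± 0.174 CPM against 69.3 ± 11.1 (log2 difference -7.75), Efs had a log2 difference of -5.98 and Nedd9 of -1.28, all past the threshold.

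Ptk2b encodes PYK2, a calcium-activated tyrosine kinase of the focal adhesion kinase family (ENSMUSG00000059456, chromosome 14, 66390706 to 66518501, minus strand). It was high in both sources, at 199, 204, 207, 188 and 212 CPM in microglia and 277, 291, 279, 299.7 and 304 CPM in bulk brain. The groups did not overlap, yet the gap was small, a log2 difference of -0.52 ± 0.08 (SE, edgeR adjusted p = 4.7e-05). Of the 9 genes it varied least in bulk brain, with a coefficient of variation of 4.12%, and replicates 1 and 2 lay among the others. The paralog Ptk2, which encodes FAK, was far lower in microglia (8.58 ± 1.29 CPM against 113 ± 5.50, log2 difference -3.72).

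Of 12 partners in CAS and FAK signalling, 9 rose and 3 fell (median 0.64), where 37.2% of all genes tested were called higher and 43.9% lower. Some of the rises were small, as in Crk (0.49) and Grb2 (0.50). The largest rise was in Dock2, a RAC activator of blood cells (433 ± 10.5 CPM against 3.82 ± 1.01), and the SRC family kinase gene Lyn rose as well (log2 difference 6.05). The SRC family gene Fyn fell (-2.48), as did Src (-0.28) and, most of all, the adaptor gene Bcar3 (-3.23).

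Fermt2 showed the largest fall of the 9 genes. It encodes kindlin-2, which binds the tails of beta integrins and activates them (ENSMUSG00000037712, chromosome 14, 45696252 to 45767575, minus strand). Bulk brain libraries stood at 75.8, 57.2, 100.4, 88.7 and 87.9 CPM and microglia at 1.43, 2.29, 1.23, 0.119 and 1.501 CPM. Replicate 4 of microglia, with 3 counts, was the lowest, and replicate 2 the highest. Its log2 difference was -5.96 ± 0.46 (SE, edgeR adjusted p = 1.6e-07), and the mean microglial level was 1.60% of that in bulk brain. Bulk brain replicates 3 to 5 alone gave -6.28 and replicates 1 and 2 alone -5.75. For comparison, the levels left in microglia had a median of 0.134% over neuron markers (10 of 10 lower) and 0.414% over astrocyte markers (10 of 10 lower). The median was 0.664% over oligodendrocyte markers (9 of 9 lower) and 0.821% over oligodendrocyte precursor markers (5 of 5 lower). It was 8.19% over mural cell markers (8 of 8 tested lower) and 16.2% over endothelial markers (8 of 10 lower). Summed mural markers were 10.7 CPM in microglia replicate 4, 10.9 in replicate 5 and 26.5 in replicate 2, against 233 to 258 CPM in bulk brain. Summed oligodendrocyte markers were 144, 209 and 246 CPM in replicates 4, 5 and 2, and summed neuron markers 6.49, 10.6 and 12.3 CPM. In each of these sums, as in Fermt2, replicate 4 was the lowest and replicate 2 the highest. The lowest sum was in replicate 3 for astrocyte and oligodendrocyte precursor markers, and in replicate 5 for endothelial markers. Summed astrocyte markers were 135 to 172 CPM in microglia against 3981 to 5063 CPM. Most of that microglial sum was 1 gene, Slc1a3, at 130 ± 3.41 CPM or 25.7% of its bulk brain level, far above the astrocyte median. The part of any of these cell types in the Fermt2 counts was not tested.

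The kindlin paralogs changed places between the sources. Fermt3, the kindlin of blood cells, was the 1 kindlin gene that rose (415 ± 9.26 CPM against 4.02 ± 1.25 in bulk brain, with a log2 difference of 6.69 and an edgeR adjusted p = 1.3e-10). Fermt1, the epithelial kindlin, had 0 counts in microglia and 113 in bulk brain. With 3 counts over the 5 libraries as the floor this is at least 28.1-fold lower, and the gene did not pass the low-count filter. Among 13 integrin adhesion genes tested, 8 rose, 2 fell and 3 missed the threshold (median 2.49). Itgb2, the beta chain partner of CD11b, rose most (639 ± 14.2 CPM against 4.41 ± 0.531), and Tln1, which encodes the integrin activator talin, rose too (861 ± 36.2 CPM against 63.8 ± 5.89). The parvin genes differed as the kindlins did: Parvg was higher (log2 difference 6.14), Parva lower (-7.40) and Parvb not past the threshold (0.08), while Lims2 (-4.81) was the other gene that fell.

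Cd2ap encodes a scaffold that ties membrane receptors to actin capping protein (ENSMUSG00000061665, chromosome 17, 43103842 to 43187556, minus strand). Its levels were 288, 299, 274, 282 and 275 CPM in microglia and 23.9, 20.1, 41.6, 41.0 and 36.3 CPM in bulk brain, where replicates 1 and 2 were the lowest. This made Cd2ap 8.71-fold higher, a log2 difference of 3.12 ± 0.21 (SE, edgeR adjusted p = 4.1e-08), which was 2.68 against replicates 3 to 5 alone and 3.60 against replicates 1 and 2 alone. The bulk brain level was 11.5% of the microglial one, above the 1.84% that was the highest among microglia markers. Its paralog Sh3kbp1, which encodes CIN85, was higher as well (126 ± 6.05 CPM against 39.6 ± 6.25). Of 7 partner genes tested, 4 rose, 2 fell and 1 (Cblb, 0.07) did not pass the threshold (median 0.66). Cbl, a ubiquitin ligase gene, rose most (log2 difference 2.79, or 2.195 to 3.800 over the alternatives tried), the capping protein genes Capza1 (2.18), Capza2 (1.91) and Capzb (0.66) rose, and Cttn, which encodes the actin-binding protein cortactin, fell (-7.03). The nephrin gene Nphs1, with no count in microglia, was lower by at least 37.6-fold on the same floor.

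Sorl1, the sorting receptor gene, was lower in microglia but well above 0 in every library. The gene (ENSMUSG00000049313, chromosome 9, 41876016 to 42035593, minus strand) stood at 98.8, 84.9, 99.5, 106.7 and 88.8 CPM in microglia. In bulk brain it stood at 312 and 251 CPM in replicates 1 and 2 and at 598, 593 and 593 CPM in replicates 3 to 5. The 2 sets of bulk brain libraries differed 2.11-fold in their means, the widest such gap of the 9 genes, and both lay above every microglia library. The log2 difference was -2.29 ± 0.25 (SE, edgeR adjusted p = 3.6e-06), -2.79 against replicates 3 to 5 alone and -1.64 against replicates 1 and 2 alone.

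Among the VPS10P-domain receptors, the family of Sorl1, the sortilin gene Sort1 stood at 460.2 ± 10.3 CPM against 412 ± 119 and did not pass the threshold (log2 difference 0.16). Its sign depended on the processing, with -0.02 under median-of-ratios scaling and -0.27 against bulk brain replicates 3 to 5 alone. The 3 SORCS genes had few counts in microglia: Sorcs2 had 9 counts there (log2 difference -9.37), Sorcs1 had 1 (ratio 4618, 95% counting interval 829 to 182418) and Sorcs3 had 2 (ratio 2514, interval 696 to 20762). Retromer and GGA adaptor genes, which sort SORL1, moved both ways, with 8 of 13 higher, 4 lower and 1 (Gga2, 0.17) not past the threshold (median 0.33). Snx5, a membrane-bending sorting nexin gene, rose most (721 ± 28.3 CPM against 90.5 ± 17.2), the core subunit gene Vps35 rose slightly (0.26, edgeR adjusted p = 0.039), and Vps26b (-0.75), Vps29 (-0.54), Snx27 (-0.61) and Snx3 (-0.93) fell. The Vps35 libraries overlapped between the groups (209 ± 14.4 CPM against 175 ± 21.0), and its call was not followed under other processing. Vps26a (0.97) and Vps26b went in opposite directions.

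Rin3 encodes an exchange factor that loads RAB5 GTPases on early endosomes (ENSMUSG00000044456, chromosome 12, 102249307 to 102357114, plus strand). Microglia libraries stood at 99.3, 107.6, 120.0, 109.6 and 107.0 CPM and bulk brain libraries at 3.04, 1.79, 2.18, 2.91 and 3.0 CPM. All 5 microglia libraries lay far above all 5 of bulk brain. Rin3 was 42.1-fold higher, a log2 difference of 5.39 ± 0.17 (SE, edgeR adjusted p = 8.6e-11). The bulk brain level was 2.38% of the microglial one, just above the range of the microglia markers. Its fold lay inside the 16.2-fold (Cbr2) to 127-fold (Siglec1) of the border-associated macrophage markers. Its paralogs Rin2 (298 ± 22.9 CPM against 28.7 ± 2.68) and Rinl (36.0 ± 3.19 CPM against 1.86 ± 0.592) were higher too, whereas Rin1 was lower (0.740 ± 0.321 CPM against 34.1 ± 4.24). The RAB5 genes and their effectors differed little: of 10, 3 rose, 2 fell and 5 missed the threshold (median -0.07), and all log2 differences lay between -0.69 (Rabep1) and 1.21 (Rab31).

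Celf1, the RNA-binding protein gene, was high in both sources (ENSMUSG00000005506, chromosome 2, 90770727 to 90849842, plus strand). It stood at 369, 379, 358, 357 and 373 CPM in microglia and at 175, 162, 248, 262 and 258 CPM in bulk brain, with replicates 1 and 2 the lowest. Though the groups did not overlap, the log2 difference of 0.73 ± 0.14 (SE, edgeR adjusted p = 5.2e-04) was 0.36 against replicates 3 to 5 alone and 1.05 against replicates 1 and 2 alone. The family split into 2 broadly expressed genes and 4 that were low in microglia. Celf2 did not pass the threshold (433 ± 18.4 CPM against 348 ± 98.4), and its sign turned against replicates 3 to 5 alone (log2 difference -0.11). Celf3 (log2 difference -5.89), Celf4 (-6.64) and Celf5 (-8.79) were lower, and Celf6, not counted once in microglia, was lower by at least 1070-fold on that floor.

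Other RNA-binding regulators showed paralog differences as well: of 8 tested, 3 rose, 3 fell and 2 did not pass the threshold (median -0.06). The polypyrimidine tract-binding protein gene Ptbp1 rose (200.1 ± 10.8 CPM against 19.9 ± 5.72), as did the muscleblind gene Mbnl1 (3.07) and Parn (0.63), which encodes a deadenylase. The splicing regulator genes Rbfox3 (-7.97), which is also 1 of the neuron markers, Rbfox2 (-4.57) and Rbfox1 (-4.39) fell.

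Zcwpw1 was higher in microglia (ENSMUSG00000037108, chromosome 5, 137786060 to 137820883, plus strand), at 30.6, 34.5, 28.3, 33.7 and 34.3 CPM against 7.58, 7.36, 4.37, 4.34 and 5.34 CPM in bulk brain. Here bulk brain replicates 1 and 2 were the highest, 1.60-fold above replicates 3 to 5, opposite to Sorl1, Cd2ap and Celf1. Zcwpw1 was 5.57-fold higher, a log2 difference of 2.47 ± 0.19 (SE, edgeR adjusted p = 1.4e-07), with 2.62 against replicates 3 to 5 alone and 2.03 against replicates 1 and 2 alone. Pilra, an immune receptor gene on the other strand, overlaps Zcwpw1 by 670 bases and shares 8.21% of its exon bases, and was higher too (10.2 ± 1.52 CPM against 0.198 ± 0.156). The paralog Zcwpw2 was low in both sources (1.19 ± 0.530 CPM against 0.729 ± 0.297) and did not pass the threshold. Of 8 meiotic recombination genes, 5 could be tested, with 1 higher, 3 lower and 1 (Dmc1, -0.76) not past the threshold (median -2.02). The higher one was Prdm9, the histone methyltransferase gene whose marks ZCWPW1 reads in meiosis, at 22.4 ± 3.29 CPM against 2.77 ± 0.646 in bulk brain (log2 difference 3.02, edgeR adjusted p = 3.8e-08). The synaptonemal complex gene Sycp3 fell (-2.02), Sycp1 had 2 counts in microglia (ratio 180, 95% counting interval 49.7 to 1484), and Mei4 had none, at least 49.6-fold lower.

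**Figure D2:**
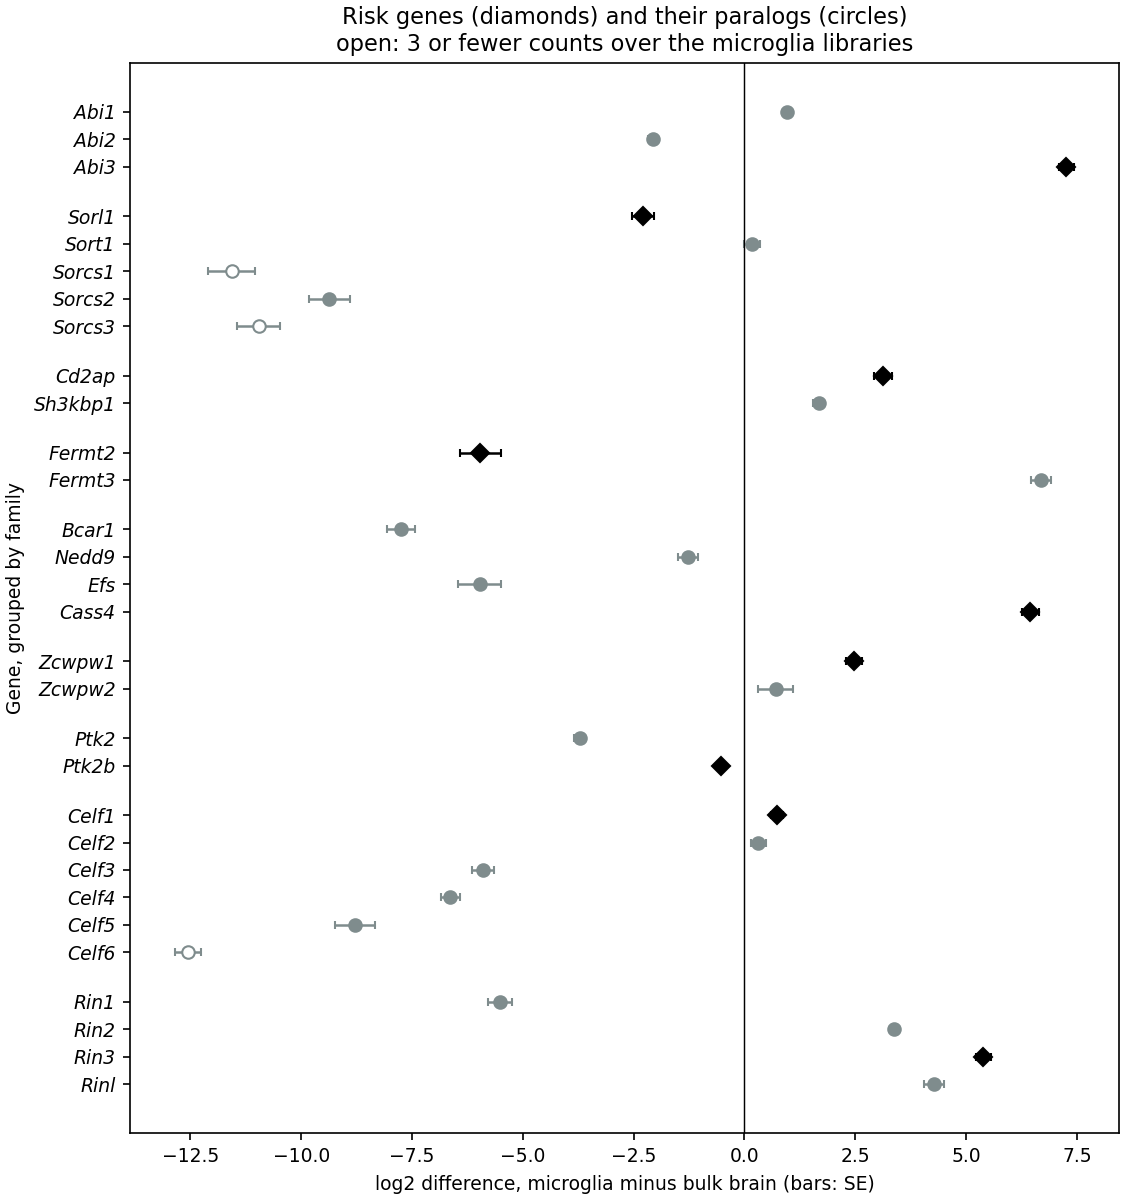
Log2 difference (microglia minus bulk brain, bars show the SE) for the 9 genes (black diamonds) and their tested paralogs (grey circles), grouped by family, with open symbols for 3 or fewer counts over the microglia libraries, where the fitted value depends on the method. In the ABI, kindlin, CAS, CELF and RIN families the risk gene and at least 1 paralog past the threshold lie on opposite sides of 0, and Sort1, which did not pass it and whose sign turned under other processing, lies on the other side from Sorl1.

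Relative to length, the order of the genes differed between the sources. In CPM per kilobase of exon, the microglial order was Celf1 (43.5 ± 1.14), Ptk2b (27.3 ± 1.21), Cd2ap (17.9 ± 0.656), Abi3 (17.8 ± 0.719), Rin3 (15.9 ± 1.09), Sorl1 (8.46 ± 0.776), Cass4 (5.92 ± 0.574), Zcwpw1 (5.67 ± 0.481) and Fermt2 (0.253 ± 0.150). Cd2ap, Abi3 and Rin3 overlapped as neighbours in this order, and so did Cass4 and Zcwpw1. In bulk brain it was Sorl1 (41.4 ± 15.3), Ptk2b (39.2 ± 1.62), Celf1 (26.2 ± 5.77), Fermt2 (15.8 ± 3.16), Cd2ap (2.05 ± 0.628), Zcwpw1 (1.02 ± 0.278), Rin3 (0.378 ± 0.0827), Abi3 (0.116 ± 0.0305) and Cass4 (0.0672 ± 0.0186). Sorl1 and Ptk2b, Celf1 and Fermt2, Cd2ap and Zcwpw1, and Abi3 and Cass4 overlapped there. With only exon bases shared with no other gene as length, Abi3 moved from rank 4 to rank 1 in microglia (73.5 ± 2.97 CPM per kilobase). That length was chosen after seeing the data, and the counts were left unchanged. The value therefore applies only if no read from shared bases was counted, which is not known, and is otherwise too high.

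The same scale gives the share of each gene within its family, a ratio inside each library that does not depend on the scaling between libraries. Fermt2 made up 0.350% ± 0.206 of kindlin transcripts in microglia (SD, n = 5 libraries) against 94.8% ± 2.64 in the 5 of bulk brain. Cass4 made up 88.4% ± 1.46 of CAS transcripts in microglia and 0.318% ± 0.0921 in bulk brain, and Celf1 71.3% ± 1.23 of CELF transcripts against 19.9% ± 2.22. Abi3 made up 24.5% ± 0.796 against 0.254% ± 0.0528 of its family, and Rin3 30.4% ± 2.10 against 3.57% ± 0.611. Cd2ap rose from 33.8% ± 4.41 in bulk brain to 58.8% ± 1.33 in microglia, while Sorl1 fell from 36.5% ± 2.57 to 12.2% ± 0.883, with Sort1 at 87.8% of the family in microglia. Ptk2b took the larger share of its family in both sources, 97.4% ± 0.503 in microglia and 80.4% ± 0.671 in bulk brain, so its share was higher in microglia although its level was lower. Zcwpw1 made up 94.6% ± 2.13 and 83.8% ± 4.50. Each of these 9 shares gave p = 0.0079 in an exact two-sided permutation test over all splits of 5 against 5. That is the smallest p the design allows, and it was 0.0079 after adjustment over the 9 shares. It says only that the shares of the groups did not overlap, and the levels of 74.7% of all genes did not overlap either. How often shares separate in other families was not counted.

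The shares of Celf1 and Abi3 depended on the length used. Without dividing by length, Celf1 made up 45.6% in microglia and 17.8% in bulk brain. With only unshared exon bases as length, Abi3 made up 56.1% against 1.01%, again only if no read from shared bases was counted.

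**Figure D3:**
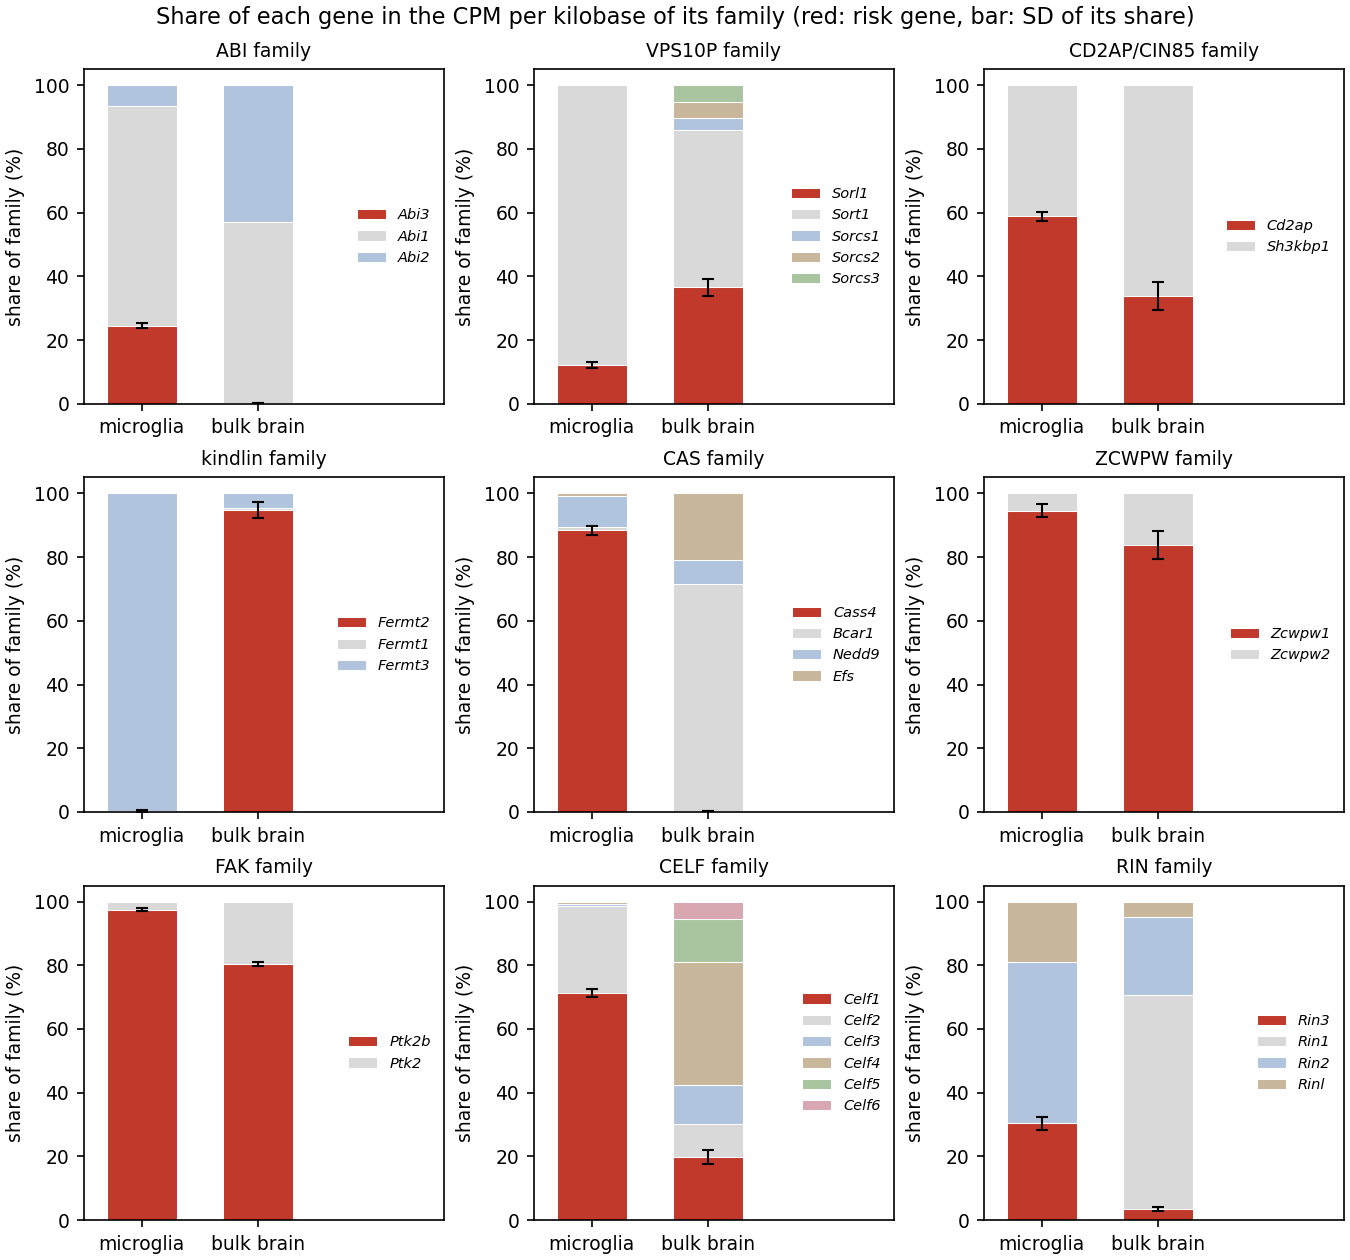
Share of each gene in the summed CPM per kilobase of its family (percent, mean of 5 libraries), for microglia and bulk brain, with the risk gene in red at the foot of each bar and its SD over libraries as the error bar. Fermt2 falls from 94.8% of the kindlin family in bulk brain to 0.350% in microglia, and Cass4 rises from 0.318% of the CAS family to 88.4%.

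A risk locus holds several genes, so the coding genes whose bodies lie within 250000 bases of each member on the mouse genome (GRCm39) were described too. Of 87 such genes, 73 were tested, of which 26 (35.6%) rose, 36 (49.3%) fell and 11 missed the threshold, with a median log2 difference of -0.48. These shares lie near those of all genes, and nothing particular to the loci is read from them. Which gene of a locus carries a risk is not addressed by these data.

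Near Celf1, 8 of 19 genes were higher and 9 lower, and Spi1, which encodes PU.1, rose most of all these neighbours (243 ± 9.72 CPM against 2.40 ± 1.07, log2 difference 6.66). Near Ptk2b all 6 tested genes were lower, among them Clu, the clusterin gene, itself named for an Alzheimer locus (5.82 ± 2.46 CPM against 746 ± 268). Scara3, also near Ptk2b, was not counted once in microglia, at least 878-fold lower. Next to Rin3, Slc24a4, an exchanger gene named for the same human locus, was lower (0.0542 ± 0.0755 CPM against 19.5 ± 10.5, log2 difference -8.35), while the protease gene Lgmn, 3229 bases from Rin3, was higher (3857 ± 109 CPM against 127 ± 37.7). Around Zcwpw1, 8 of 17 genes were higher and 7 lower.

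**Figure D4:**
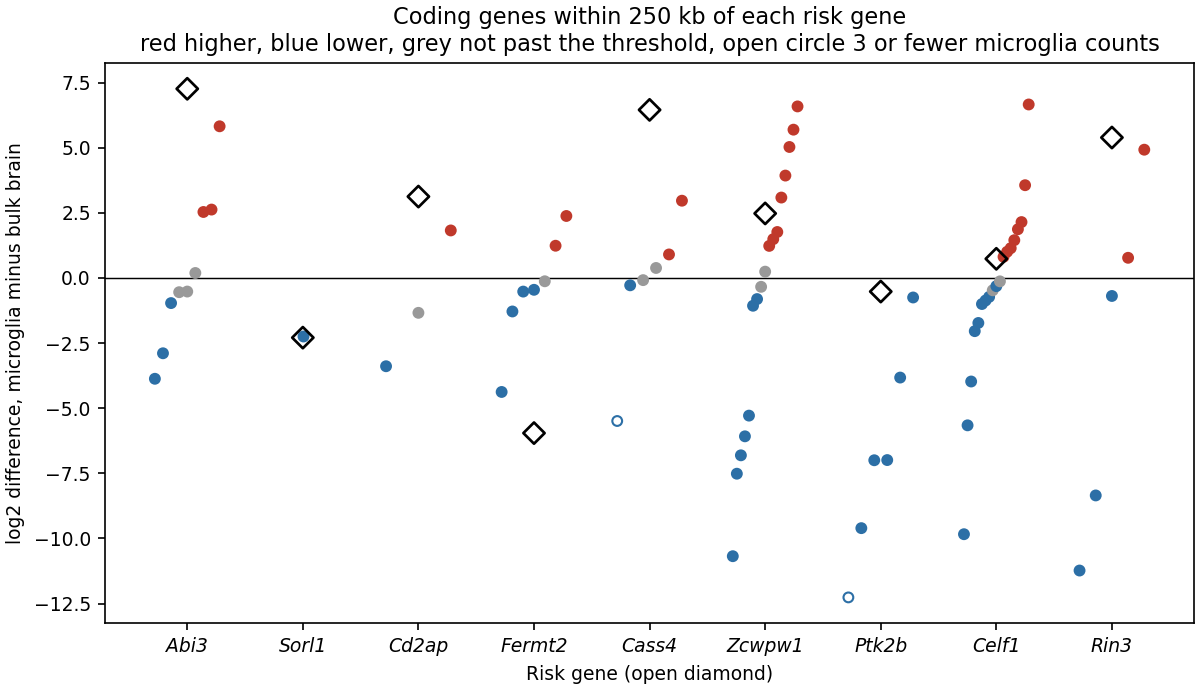
Log2 difference (microglia minus bulk brain) of tested coding genes within 250 kb of each risk gene, drawn in order of their value, red for higher, blue for lower and grey for not past the threshold, open circles for 3 or fewer counts in microglia, and open diamonds for the risk genes. Genes on both sides of 0 stand near Abi3, Cd2ap, Fermt2, Cass4, Zcwpw1, Celf1 and Rin3, whereas all 6 near Ptk2b lie below 0.

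A list of 19 other genes named for Alzheimer loci gives a scale for these values: 14 rose in microglia, 2 fell (Clu and Slc24a4) and 3 missed the threshold (Apoe, Epha1 and Tmem106b), with a median log2 difference of 2.87. Of all genes tested, 37.2% were called higher and 43.9% lower. Abi3 (7.26) and Cass4 (6.45) stood in the range of Cd33 (7.49), Trem2 (6.82) and Plcg2 (6.24). Cd2ap (3.12) stood next to Picalm (2.87), another endocytosis gene, and Celf1 (0.73) near Mef2c (0.78). Differences between these genes were not tested.

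Some other coding genes followed a risk gene closely over the 10 libraries, by the Euclidean distance between mean-centred log2 CPM (pseudocount 0.5), where most of the pattern is the gap between the groups. The nearest to Abi3 were Tifab (distance 0.34) and the myosin gene Myo1g (0.37), to Rin3 the cytokine receptor gene Il13ra1 (0.37) and Lacc1 (0.42), and to Cass4 the cytidine deaminase gene Apobec1 (0.38) and Lrrc3 (0.41). The pseudocount exceeded the bulk brain means of Abi3 (0.484 CPM) and Cass4 (0.359 CPM), which narrows their gaps on this scale. Fitted log2 differences were 6.50 for Tifab and 7.24 for Myo1g against 7.26 for Abi3. They were 5.42 for Apobec1 and 5.18 for Lrrc3 against 6.45 for Cass4. Sorl1 was most like Aak1, a kinase gene of endocytosis (0.37), and Arhgap21 (0.41), Cd2ap like Fam91a1 and Wdfy2 (both 0.22) and Zcwpw1 like Aga and Eed (both 0.37). Ptk2b lay nearest to Smarca4 (0.14) and Hnrnpd (0.17), and Celf1 to Prrc2a and Asb3 (both 0.17). Fermt2 had the least close neighbours, Ankrd33b (0.62) and Sh2d5 (1.01).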

How the data were processed

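Raw, unnormalized counts for 10 libraries were deposited by the authors in a single gene table, whose value columns were all mapped to samples (0 were not). CASAVA, HISAT2 2.2.1 and featureCounts 2.0 and the build GRCm39 (mm39) were named, per the submitters' processing notes. Neither the strand setting nor the rule for reads shared by genes is given in the sources used here. No replicate pair agreed within counting noise (lowest ratio of chi-square to its degrees of freedom 5.45).

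Genes were filtered with filterByExpr, scaled by TMM and tested with edgeR 4.0.16 (quasi-likelihood, group only, all 10 libraries, R 4.3.3), with Benjamini-Hochberg adjustment over 18969 genes and a threshold of 0.05, and the test was checked on simulated data. An SE is the log2 difference divided by the square root of F. Alternatives used DESeq2 1.42.0, limma 3.58.1, other scalings, no filter, a replicate block and fewer libraries. Exon overlaps came from GENCODE vM21 (GRCm38), whose exon lengths equalled the table's in 30 of 32 genes checked. Counting intervals and floors ignore every other error, as no molecular identifiers are named.

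The 9 genes, the lists, the alternatives and the rule for named genes (all members and paralogs, the largest rise and fall of each list and of the neighbours, overlapping genes and the 2 nearest profiles) were chosen with earlier results of these data known. Other genes were named, and the sequence motifs were chosen, after seeing the values. Python 3.11.15 with pandas 2.3.3 and matplotlib 3.10.9 was used for shares, permutation tests and plots.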

Additional observations from a re-analysis of the deposited data

Results flagged for a closer look

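In microglia replicate 4 the share of Ptk2b in the FAK family was 96.5%, against 97.4% to 97.8% in the other 4 microglia libraries, a gap wide for the range of the group. The level of Ptk2 was the highest there (10.8 CPM) and that of Ptk2b the lowest (188 CPM). Of 36 groups of 5 values examined (levels and shares of the 9 genes), this was the 1 that stood out, and chance flags about 1 in 20 such groups.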

How the results depend on the processing

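The counts of 6 risk genes higher and 3 lower held under all 19 alternatives, and all 171 values of the 9 genes kept their direction and their side of the threshold. The smallest effects ranged from -0.71 to -0.45 (Ptk2b) and from 0.36 to 1.05 (Celf1), with adjusted p up to 0.0017 and 0.010. Leaving out 1 library at a time moved Fermt2 between -6.24 (without microglia replicate 2) and -5.65 (without microglia replicate 4). Partner genes numbered 41 higher and 23 lower, 36 to 42 and 22 to 32 over the alternatives. The median of all genes moved from -0.14 to -0.31 (median-of-ratios), -0.33 (library size) and -0.07 (upper quartile), and to -0.85 over the larger set of genes tested without the filter. Of 46 genes followed, 44 kept direction and call throughout. Sort1 (0.092 to 0.183 in 8 fits that left out 1 library) turned to -0.0153 with median-of-ratios scaling and DESeq2, to -0.0204 with library size alone, to -0.0119 without the filter, to -0.0605 and -0.106 without bulk brain replicate 1 and replicate 2, and to -0.27 against replicates 3 to 5 alone (adjusted p = 1.4e-04), and rose past the threshold against replicates 1 and 2 alone (0.61). Celf2 turned to -0.11 against replicates 3 to 5 alone and passed the threshold against replicates 1 and 2 (0.77). The cause was not tested. All 9 family shares kept direction under 13 alternatives each. At windows of 100000 and 500000 bases, 36.6% to 43.2% of neighbouring genes were higher and 37.8% to 48.1% lower. Which of these shares was the larger depended on the window. With the replicate number as a block, 6 genes were higher and 3 lower, and 40 and 22 partner genes, and no call of the 9 genes changed. The numbers share no more than a number (correlation of same-numbered libraries -0.045 to 0.019, none highest with its own). Depth limits the low side of 3 genes: Abi3 and Cass4 rest on 80 and 60 counts over bulk brain and Fermt2 on 166 over microglia.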

Other observations

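Ilk, which encodes a protein named integrin-linked kinase that binds kindlins and parvins and is known from most cell types, had only 7 counts over the microglia libraries and 9 over bulk brain. It was not tested. Of its exon bases, 89.7% also lie in exons of Rrp8 or Taf10 on the other strand (GENCODE vM21). Among the 9 risk genes the same measure was highest for Abi3 (75.8%), followed by Cass4 (21.2%), Zcwpw1 (8.21%) and Sorl1 (1.63%), and it was 0 for Cd2ap, Fermt2, Ptk2b, Celf1 and Rin3. How reads from such stretches were counted was not tested.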
